A study of Mus musculus with 12 samples.

Results

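PUER cells before any 4-hydroxytamoxifen (4-OHT) are described here from 3 of the 12 arrays of the series, replicates A, B and C of the control vector. They were chosen by their titles, which name the control vector and the undifferentiated state. The study as a whole compared 4 groups of 3 arrays: control cells and cells with an shRNA that targets Hnrnpa0, both before 4-OHT and 24 h into 2 nM of it. All of the cells had taken up a retroviral vector and were sorted for its GFP marker, and they grew in medium with serum and IL-3 and without phenol red. Each replicate of the control vector came from its own clone, per the series' design text, and each clone had a single array here. The spread between arrays given below, called that between the 3 clones, therefore also includes any difference of RNA preparation, labelling and hybridisation. No other group was used, and nothing below compares the starting state with another condition.

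PUER is a mouse myeloid progenitor line made from fetal liver cells that lack the transcription factor PU.1, into which PU.1 joined to part of the estrogen receptor was put back. In such cells the fusion protein stays largely inactive until 4-OHT binds it, and IL-3 keeps the cells dividing. PU.1 drives genes of macrophages and neutrophils, while C/EBP factors and Gfi1 act in granulocyte development, and the proteins of neutrophil granules are made in successive waves as a cell matures. The starting state is therefore what these cells hold in IL-3 before the fusion is switched on, and it has the limits of an immortal line that carries a transgene.

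Total RNA was labelled with Cy3 and hybridised to Agilent whole-genome arrays with 60-base probes. A gene was called detected when at least 1 of its probes was well above background on all 3 arrays, by the flag of the scanner software. It was called not well above background when none of its probes was on any array, and detected in part otherwise. A gene was called saturated when at least 1 probe was flagged so on all 3 arrays. Of 19414 named genes, 10820 were detected, which is 55.7%, and 7388, or 38.1%, were not well above background. Saturation on all 3 arrays was seen for 381 genes, or 1.96%. The remaining 1206 genes were detected in part, and 316 of these counted as detected once spots flagged as outliers were kept.

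Because probes differ in how well they bind, the rank of a probe is not a rank of transcript number, and signals below background or at saturation have no order. Signals are given as processed intensity, ranks as the percentile of the probe among all 41174 non-control probes of its array, and levels as log2 of the signal over the 75th percentile of the array. That 75th percentile was 1018 on array A, 1606 on array B and 1402 on array C, and array A also had fewer saturated spots, 614 against 945 and 835. The signals of the 3 arrays correlated with r of 0.990 to 0.992 across all probes, which are not independent replicates. All 3 arrays lay on slide 1. On each array 7 of the 10 spike-in probes were detected and 1 was saturated.

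Olfactory and vomeronasal receptors, which sense odours and pheromones, gave a yardstick for dim signals. This family was picked after its values were seen. Of its 1035 named genes, 107 were detected, or 10.3%, and 95% of those 107 lay under a level of -0.56, equal to signals of 693, 1092 and 954 on arrays A, B and C and to a probe percentile of 71.6. Detected genes above that level are called clearly detected below, and those under it lie within the range of most detected olfactory genes. Of all named genes, 7655 were clearly detected, or 39.4%. The share of olfactory and vomeronasal genes above the bound, 0.58%, was fixed by how the bound was set. It therefore does not show how well the bound separates signals.

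**Figure D1:**
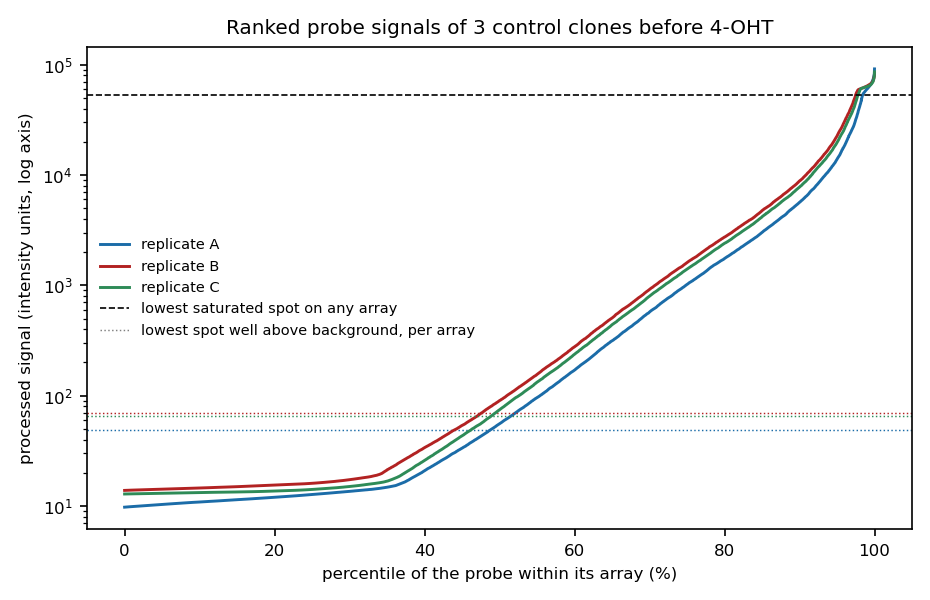
Processed signal (intensity units, log axis) of every non-control probe against its percentile within the array, for replicates A, B and C. The dotted lines mark the dimmest spot well above background on each array (49.3, 70.3 and 65.1), the dashed line marks the dimmest saturated spot (52661), and array A runs under arrays B and C over most of the range.

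Among lineage regulators, the starting cells held the granulocyte factors of the C/EBP and Gfi1 kind and several early blood factors, while Gata1, Pax5 and Ebf1, of other lineages, were not well above background. Not all factors of other lineages were absent: 5 of 8 red cell and platelet and 8 of 22 lymphoid and dendritic factors were detected. Of 127 measured regulators, 59 were detected and 60 were not well above background, and 41 were clearly detected. The share detected was 46.5%, beside 55.7% of all named genes; the lists include regulators of many other lineages.

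Spi1, the gene of PU.1, was read by a single probe at 4614, 5942 and 5146 on arrays A, B and C. This was a level of 1.98 ± 0.17 (SD, n = 3) at a percentile of 87.4, so Spi1 RNA was clearly detected in all 3 clones. The probe's coordinates in the file, chr2:90950224-90964011 in build mm7, span 13788 bases although the probe holds 60, so it joins separate stretches of the gene. Whether it reads the fusion transcript, another Spi1 transcript or both was not tested. Its sequence, shown because every statement on Spi1 rests on it, has no capitals since no part was singled out.
Spi1 probe: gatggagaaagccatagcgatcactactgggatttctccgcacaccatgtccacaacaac

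For Esr1, the estrogen receptor gene, the probe of highest signal read 276, 507 and 456, while its other probe read 10.7, 38.8 and 13.3 and was not well above background on any array. The first probe lay at a percentile of 64.8, so it was detected but not clearly, and which receptor sequence either probe matches in the fusion was not tested. The relatives Spib and Spic, PU.1-like factors of B cells and red pulp macrophages, were not well above background, and neither was Esr2, the second estrogen receptor gene.

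Of 36 measured granulocyte and macrophage factors, 27 were detected and 21 clearly so, with a median percentile of 86.0. Cebpb, a C/EBP factor of inflammatory and emergency granulocyte responses, was saturated on all 3 arrays at 55468, 59739 and 61032, as was Klf2, a factor of quiescence and endothelial and myeloid cells. Cebpd, another C/EBP factor, was near the ceiling at 49097, 60623 and 60561 and saturated on 2 arrays. Gfi1, a repressor needed for neutrophil development, read 38566, 58595 and 51550 and was saturated on 1 array. Cebpa, which opens the granulocyte-monocyte programme, read 16705, 26292 and 25581 at a percentile of 95.7. These values, of the probe of highest mean, put Cebpa, Cebpb, Cebpd and Gfi1 among the brighter few percent of probes in each clone. With the median over probes Cebpa lay lower, at a percentile of 89.0, and Cebpb at 97.2.

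Several factors tied to macrophage or dendritic maturation were dim or not well above background, though Maf and Mitf, of macrophages and other cells, were clearly detected, by 1 of 4 and 1 of 2 probes. Irf8, needed for monocytes and dendritic cells, read 111, 180 and 144 by its brighter probe and was not well above background on any array by the other, at 30.9, 61.4 and 51.1. Egr2, a macrophage factor downstream of PU.1, read 660, 1450 and 735, with array B above the others also in level and a spread of 0.40 (SD of the log2 level, n = 3). Irf4, a factor of dendritic and lymphoid cells, read 10.9, 14.5 and 13.3. Klf4, Egr3, Vdr and Id3, also regulators of myeloid maturation, were likewise among the 6 factors of the list that were not well above background. Egr1, an early response gene, and Max, the partner of Myc, were detected in part, each with values lost to outlier spots, and both counted as detected when those spots were kept.

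Early blood factors were split. Lyl1, a helix-loop-helix factor of stem and progenitor cells, read 41661, 58887 and 51480 with 1 saturated spot. Myb, which keeps progenitors dividing, read 35730, 57531 and 48746 with all 4 of its probes detected. Its percentile was 97.7 by the probe of highest mean and 86.5 with the median over probes. Tal1 and Fli1, factors of early blood and vessel development, lay at percentiles of 94.9 and 96.0, and Lmo2 and Runx1, further blood factors, at 87.2 and 81.7. Gata2, a stem cell and mast cell factor, was detected but dim at 224, 280 and 228. Meis1, Mecom, Erg, Mycn, Prdm16, Ikzf2 and Nkx2-3 were among the 8 members not well above background. Meis1, a partner of Hox proteins in stem cells and leukaemia, read 30.3, 22.0 and 13.7, and Mecom, a stem cell factor, read 13.7, 17.1 and 14.8 by its brightest of 3 probes. In all, 12 of these 20 stem and progenitor factors were detected, a share near the 55.7% of all named genes.

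Of 8 measured red cell and platelet factors 5 were detected and 3 clearly so, or 62.5% and 37.5%. Both shares lay near the 55.7% and 39.4% of all named genes. Gata1, the central factor of these lineages, read 36.1, 54.6 and 31.7 and was not well above background, and the same held for Gfi1b and Cbfa2t3. Klf1, the red cell Krüppel-like factor, was detected at 139, 258 and 164, but not clearly, and Zfpm1, a partner of GATA factors, was clearly detected at 718, 1162 and 866. Nfe2, a platelet and red cell factor, had every spot flagged as an outlier and no value; with those spots kept it lay at a percentile of 97.3.

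Among 22 lymphoid and dendritic factors, 8 were detected, or 36.4% beside 55.7% of all named genes. The E proteins Tcf3 and Tcf4, helix-loop-helix factors found in many cells, and Ets1 and Bcl11a, factors of lymphoid and other progenitors, were clearly detected, with Tcf3 at 8460, 12960 and 11285. Ikzf1, the Ikaros gene, read 904, 1799 and 1670. Of commitment factors, Pax5 and Ebf1, of B cells, and Gata3, Tcf7 and Foxp3, of T cells, were not well above background. Zbtb7b and Batf3, further members of the list, were detected. Pax5 read 14.7, 20.6 and 18.2 by its brighter probe.

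Hox genes set positional and progenitor identity. Of 38 measured, 6 were detected, 3 in part and 29 were not well above background. The share detected was 15.8%, beside 55.7% of all named genes. Hoxa9, a progenitor factor often active in myeloid leukaemia, read 1406, 2405 and 1946, a level of 0.51 ± 0.07 (SD, n = 3). Hoxb6, expressed in myeloid progenitors, read 759, 1085 and 936, and was the other Hox gene clearly detected; its second probe read 21.2, 14.2 and 22.5 and was not well above background, and with the median over probes its percentile was 49.8. Hoxa7 read 663, 1084 and 878, and Hoxc4 read 588, 741 and 712. Hoxa3 and Hoxd9 were detected, each by 1 of 2 probes, and of these 4 genes none was clearly detected. The detected members were 3 of the 11 measured genes of the Hoxa cluster and 1 each of the Hoxb, Hoxc and Hoxd clusters. Hoxa10, Hoxb4 and Hoxb8, all of them used to expand or immortalise progenitors in culture, were not well above background.

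**Figure D2:**
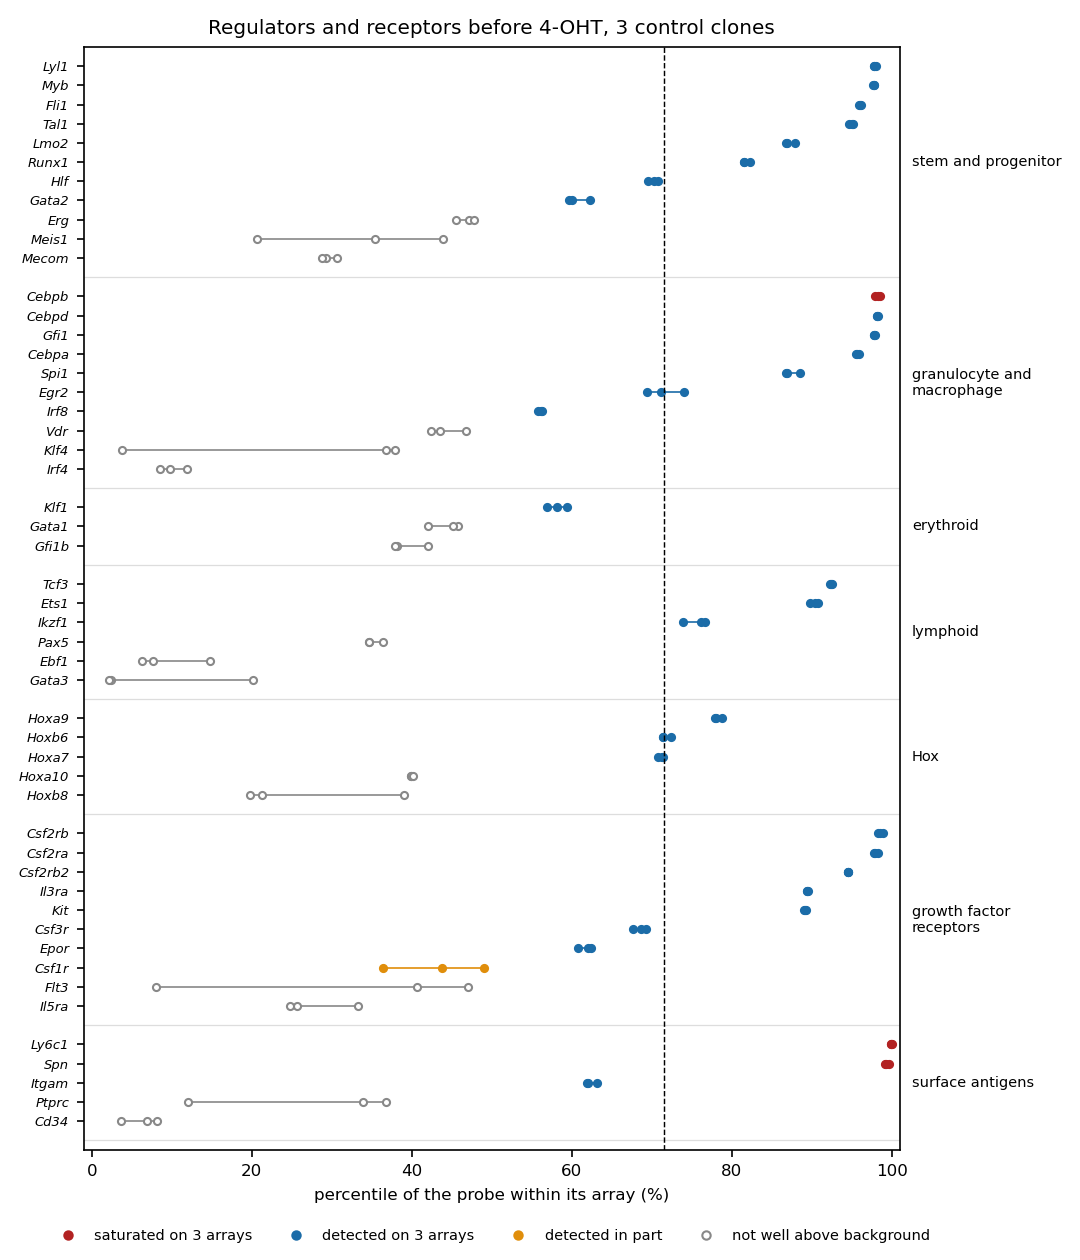
Percentile of the probe of highest mean within each array (x axis, %) for regulators and receptors; each point is 1 of the 3 control clones and the colour gives the call. The dashed line marks a percentile of 71.6, that of the level under which 95% of the detected olfactory and vomeronasal genes lay; Lyl1, Myb, Gfi1 and the C/EBP genes sit far to its right, and Meis1, Gata1, Pax5, Flt3 and Ptprc to its left.

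The chains of the IL-3 receptor, whose ligand was in the medium, were all present. Of 155 measured genes of the receptor lists, signalling genes included, 101 were detected, or 65.2%, and 81 clearly so, or 52.3%, beside 55.7% and 39.4% of all named genes. Csf2rb, the beta chain shared by the IL-3, GM-CSF and IL-5 receptors, read 49806, 61670 and 63007 and was saturated on 2 arrays. This was its probe of highest mean, at a percentile of 98.6, and with the median over its probes the percentile was 73.6. Csf2rb2, the beta chain used by IL-3 alone in the mouse, read 12352, 19922 and 17556. The alpha chain Il3ra read 5234, 8245 and 7126, a level of 2.36 ± 0.01 (SD, n = 3). Csf2ra, the GM-CSF alpha chain, read 36596, 61029 and 55595 with 1 saturated spot, while Il5ra, the IL-5 alpha chain, read 14.3, 16.2 and 14.1 and was not well above background. Each of the chains for IL-3 and GM-CSF was thus clearly detected in all 3 clones.

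The receptors of other growth factors differed from each other. Kit, the stem cell factor receptor, read 5119, 7711 and 6899, a level of 2.30 ± 0.03 (SD, n = 3). Csf3r, the G-CSF receptor of the neutrophil lineage, read 426, 777 and 722 at a percentile of 68.5, and Epor, the erythropoietin receptor, read 229, 353 and 262. Both were detected, though not clearly. Csf1r, the M-CSF receptor of macrophages, had 3 probes: the brightest read 30.0, 24.2 and 66.7 and was well above background on 1 array only. Flt3, a receptor of early progenitors, read 40.9, 36.0 and 13.2 and was not well above background on any array.

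Ifngr1, a chain of the interferon gamma receptor, was saturated on all 3 arrays at 70178, 68700 and 66869 and was the cytokine receptor gene called saturated. The partner chain Ifngr2, the interferon alpha and beta receptor chains Ifnar1 and Ifnar2, and the tumour necrosis factor receptors Tnfrsf1a and Tnfrsf1b were clearly detected. Il2rg, Il4ra, Il13ra1 and Il17ra, chains of interleukin receptors, were also clearly detected. Il7r, Il2ra, Il2rb and Il9r, receptors chiefly of lymphoid cells, were not well above background.

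Most genes of the IL-3 signalling list were present: 26 of 30 were detected and 25 clearly so. These shares were 86.7% and 83.3%, beside 55.7% and 39.4% of all named genes. Whether they are particular to IL-3 signalling was not tested. Cish, a suppressor induced by STAT5, read 44308, 60493 and 60014, and Socs3, a related suppressor, read 39362, 56966 and 53694. Jak2, the kinase of the beta chain, read 3058, 5440 and 4349. Stat5a and Stat5b, its transcription factors, lay at the 87.8th and 90.9th percentile. The survival and proliferation targets Mcl1, Pim1, Bcl2l1, Bcl2 and Osm were all clearly detected, with Mcl1 at 27496, 51668 and 41318. Of the list, 3 genes were not well above background, among them Syk, a kinase of immune receptors, and Fgr, of the Src family. Lyn, another Src family kinase, was clearly detected at 2430, 3255 and 3186.

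Surface antigens gave a mixed picture. Ly6c1, whose product carries the Ly6C antigen of monocytes and granulocyte progenitors, was saturated at 77128, 77829 and 75879, and its near-identical neighbour Ly6c2 was not measured here, so the probe may read both. Spn, the CD43 gene, was saturated as well. Itgb2, the beta chain of leukocyte integrins, read 18109, 28979 and 23704, while its partner Itgam, the CD11b gene, was dim at 214, 406 and 306. Ly6a, the Sca-1 gene, read 6306, 10308 and 8167. Ptprc, the CD45 gene of nearly all blood cells, was not well above background by any of 4 probes, whose signals ran from 11.1 to 19.3. Cd34 and Cd48, antigens of progenitors and blood cells, also stayed at background, with Cd34 at 10.7, 14.3 and 13.0. Of the same list, Prom1 was detected by both probes, the brighter at 2456, 4071 and 3789, and Procr was detected as well. In all 18 of 24 measured antigens were detected, beside 55.7% of all named genes. Of the 24, 14 were clearly detected, or 58.3% beside 39.4% of all named genes.

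Receptors for microbes and immune complexes were detected in 27 of 39 cases and clearly in 18, which is 69.2% and 46.2% beside 55.7% and 39.4% of all named genes. Clec5a, a myeloid lectin that signals through Tyrobp, was saturated at 64986, 66121 and 64125 with all 3 probes detected. Its adaptor Tyrobp was detected but not clearly, at 162, 322 and 179, and the related adaptor Hcst was clearly detected at 7737, 12298 and 10480. Fcgr3, a low-affinity receptor for IgG, read 18483, 33023 and 28822, and Cd14, the lipopolysaccharide co-receptor, read 13681, 23208 and 21610. Tlr4, which Cd14 serves, read 2307, 3864 and 3454, and Tlr2, Tlr7 and Tlr9 were clearly detected too. The receptors Fcgr1, Mrc1, Msr1, Cd163 and Cd36, typical of mature macrophages, were not well above background. Of the same list, Clec7a, the beta-glucan receptor, was clearly detected, and Marco and Trem2, receptors of macrophages, were detected but not clearly.

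Chemokine and chemoattractant receptors were sparse by the main call: 5 of 18 were detected, or 27.8% beside 55.7% of all named genes. The count was 11 by the software's looser flag (positive and significant). It was also 11 for signals above the 99th percentile of the negative controls. Ltb4r1, the leukotriene B4 receptor, read 10099, 15535 and 13206, and Cxcr4, which holds cells in bone marrow, read 5561, 8702 and 7918. C5ar1, the complement C5a receptor, was clearly detected at a lower signal of 798, 1330 and 1043. Cxcr2, the receptor of mature neutrophils, was dim at 165, 313 and 145. The formyl peptide receptors Fpr1 and Fpr2 and the monocyte receptors Ccr2 and Cx3cr1 were not well above background.

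Genes of neutrophil granules were mostly present, and those of mast cell, eosinophil and killer lymphocyte granules mostly not. Of 75 measured granule genes 36 were detected, or 48.0% beside 55.7% of all named genes, and 10 were saturated on all 3 arrays, a saturated share of 13.3% beside 1.96% of all named genes. By list, 12 of 15 primary granule genes, 15 of 20 secondary and tertiary granule genes and 6 of 7 oxidase genes were detected. Only 3 of 18 mast cell and basophil genes were detected, and none of 10 eosinophil genes or 5 lymphocyte granule genes.

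Primary granule genes were among the brightest of the arrays, with a median percentile of 97.6. Mpo, the myeloperoxidase that makes hypochlorous acid, read 52638, 65142 and 62863 and was saturated on 1 array. Elane, neutrophil elastase, read 30231, 47307 and 31708, and its neighbour Prtn3, proteinase 3, read 28360, 41218 and 34106; in build mm7 their probes lie at chr10:79668034-79668093 and chr10:79661141-79661957. Ctsg, the protease cathepsin G, was saturated at 60329, 62878 and 65233. Saturated too were Srgn, the proteoglycan that packs granules, Cd63, a granule membrane protein, Ms4a3, a marker of granulocyte-monocyte progenitors, Serpinb1a, an inhibitor of granule proteases, and Lyz2, lysozyme. Prss57, a further protease of these granules, was detected but not clearly, at 649, 1056 and 693. Bpi, a bactericidal protein, and Ctsc, the protease that activates granule proteases, were not well above background. Ctsc read 11.8, 15.5 and 14.1 by its single probe. Cst7, cystatin F, was detected in part: its brighter probe read 20302 and 31276 on arrays A and B and was an outlier spot on array C.

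Genes of the later granules were also present, but not all of them. S100a8 and S100a9, calcium-binding proteins of neutrophils and monocytes, were saturated, with S100a8 at 78488, 75173 and 72814. Hp, haptoglobin, and Slpi, a protease inhibitor, were saturated as well. Ngp, a granule protein of maturing neutrophils, read 34893, 61182 and 41833, and Camp, the cathelicidin antimicrobial peptide, read 10346, 26672 and 13646. Chil3, a chitinase-like protein, read 17299, 34438 and 16776, and Lcn2, the iron-binding lipocalin, read 3468, 7610 and 4813. In all 4 of these array B gave the highest level after scaling as well, and Ngp was saturated there. Ltf, lactoferrin, a classic secondary granule protein, read 13.4, 17.6 and 42.6 and was not well above background with either of 2 probes. Mmp8 and Retnlg, products of late neutrophils, were detected only dimly, at 148, 323 and 149 for Mmp8, and Mmp9, gelatinase, was detected in part.

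The phagocyte oxidase, which makes superoxide, had 6 of its 7 measured genes clearly detected, or 85.7% beside 39.4% of all named genes. Cyba, the smaller membrane subunit, read 19281, 28420 and 24555, and the cytosolic subunits Ncf4 and Ncf1 were clearly detected, with Ncf1 at 3018, 5248 and 4549. Cybb, the catalytic membrane subunit, read 25.99, 106 and 38.2 by the brighter of 2 probes and was well above background on 1 array only.

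Of the mast cell and basophil list, Mcpt8, a basophil protease, read 1028, 1773 and 1433 and was the member clearly detected. Hdc, which makes histamine, read 392, 544 and 456, and Il13, a type 2 cytokine, was near background. Cpa3, the mast cell carboxypeptidase, read 13.7, 15.8 and 13.6, and Fcer1a, the IgE receptor chain, was not well above background. Prg2, the eosinophil major basic protein, was detected on arrays A and B at 338 and 231 and read 16.4 on array C. That last value lay under 17.6, the 99th percentile of the negative controls of array C. The spread of 2.51 (SD of the log2 level, n = 3) therefore has no exact size. The other measured eosinophil genes, among them Epx and the Ear ribonucleases, a family of near-identical copies, were not well above background on any array, nor were the granzymes Gzma, Gzmb, Gzmc and Gzmk and perforin, Prf1.

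The promoters of the granule genes were read from RefSeq for build GRCm38.p6, from 250 bases before to 50 after each start, taking the first start listed for a gene. All of the printed stretches are on the plus strand. The letters AGGAAG, a common core of PU.1 and other Ets factor sites, were searched on both strands. They were present in 9 of the 10 detected primary granule genes with a promoter in the table and in 8 of 13 secondary and tertiary ones. Beside these stand 35.1% of all 27025 promoters of this length. Among members not well above background they were present in 2 of 2 primary and 2 of 3 secondary and tertiary granule genes. The letters were thus not particular to the detected members. Observed over expected CpG was below 0.4 in 8 of the 10 and in 13 of the 13. Beside these stand 51.0% of all promoters and 33.2% of those of named genes on the array. Of members not well above background, 0 of 2 primary and 1 of 3 secondary and tertiary granule genes lay below 0.4. So did 10 of 10 mast cell and basophil genes and 8 of 8 eosinophil genes that were not well above background. A match of letters is not a binding site. The promoters of Mpo at chr11:87793534-87793833, Prtn3 at chr10:79879417-79879716 and Elane at chr10:79886062-79886361 are shown as those of the best known enzymes of these granules, with AGGAAG or its reverse complement in capitals.
Mpo promoter: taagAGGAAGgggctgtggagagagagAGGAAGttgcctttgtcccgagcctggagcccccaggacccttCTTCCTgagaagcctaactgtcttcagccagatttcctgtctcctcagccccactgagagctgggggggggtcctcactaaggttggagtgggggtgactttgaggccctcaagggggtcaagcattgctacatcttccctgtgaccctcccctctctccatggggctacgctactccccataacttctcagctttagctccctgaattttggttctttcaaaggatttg
Prtn3 promoter: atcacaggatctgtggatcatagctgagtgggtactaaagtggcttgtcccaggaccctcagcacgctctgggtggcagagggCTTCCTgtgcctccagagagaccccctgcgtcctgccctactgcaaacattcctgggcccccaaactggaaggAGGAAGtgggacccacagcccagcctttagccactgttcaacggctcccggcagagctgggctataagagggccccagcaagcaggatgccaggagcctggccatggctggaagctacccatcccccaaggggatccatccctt
Elane promoter: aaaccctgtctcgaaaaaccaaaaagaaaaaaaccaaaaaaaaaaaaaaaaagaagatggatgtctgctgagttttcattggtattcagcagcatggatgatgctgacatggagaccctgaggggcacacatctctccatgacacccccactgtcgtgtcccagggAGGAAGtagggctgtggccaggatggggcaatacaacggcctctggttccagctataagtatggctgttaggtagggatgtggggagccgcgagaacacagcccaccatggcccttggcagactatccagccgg
Mpo held 3 matches, Prtn3 held 2 and Elane held 1, and their CpG ratios were 0.09, 0.15 and 0.31.

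The 3 clones differed little from each other for most genes. Over 10217 detected genes with no saturated spot, the median SD between clones was 0.078 on the log2 scale, and the 95th percentile of the SD was 0.28. An SD over 0.5 was seen for 57 genes, or 0.56%, and for 7 of those that were clearly detected. Spread fell with level, from a median SD of 0.20 in the dimmest decile of genes to 0.054 in the brightest.

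The later granule genes departed most from this. Their median SD was 0.27 over 9 members with no saturated spot, and 7 of the 9 were highest on array B, where 31.2% of all such genes had their highest level. The median of the 9 lay 0.31 above the mean of the 3 clones on array B and 0.28 below it on array C, in log2. Camp, at a level of 3.56 ± 0.43 (SD, n = 3), and Chil3, at 4.03 ± 0.42 (SD, n = 3), were bright, and 95% of genes in the ninth decile of level had an SD under 0.15. Lcn2, Olfm4, Pglyrp1, Mmp8 and Retnlg made up the rest of the 7, while Cd177 was highest on array A and Orm1 on array C. Pglyrp1, a peptidoglycan-binding protein, differed least of the 7, with an SD of 0.12. The count of 7 was the same under normexp, quantile normalization and scaling to the median of detected probes. Primary granule genes had a median SD of 0.11 over 5 members, and 2 of the 5 were highest on array B. Elane, at an SD of 0.22, had levels of 4.89 and 4.88 on arrays A and B and a lower one on array C. Cxcr2, with levels of -2.62, -2.36 and -3.27, was highest on array B. The order rests on 1 clone. More cells making these genes and more RNA per cell cannot be told apart in such bulk samples, and neither can a lasting difference of a clone and a passing state of its culture. Each clone had a single array, so a difference in the handling of its RNA or array cannot be told apart from these either.

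**Figure D3:**
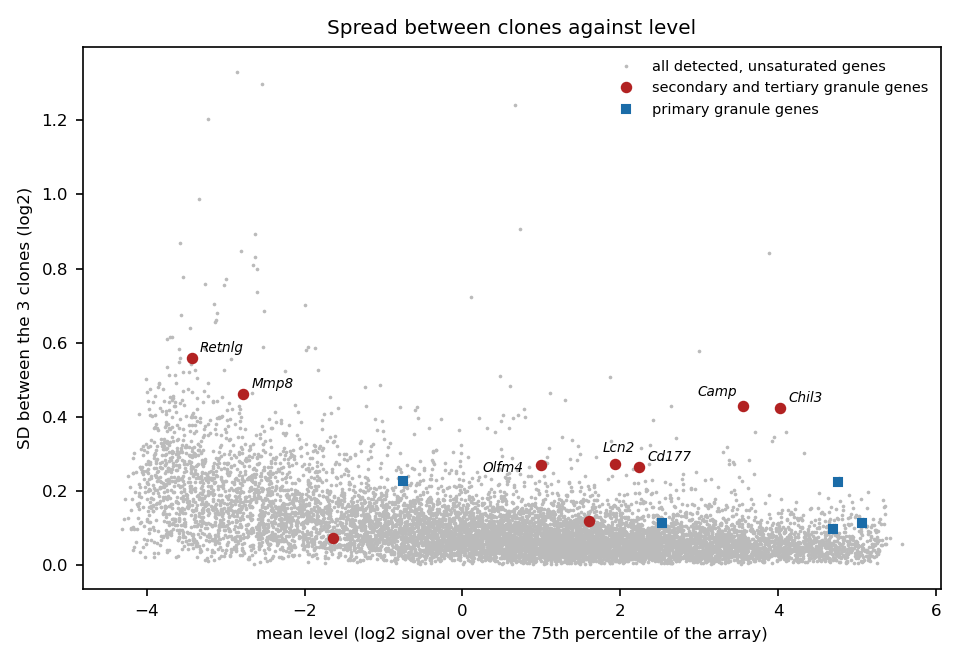
SD of the level between the 3 control clones (log2) against the mean level for all detected genes with no saturated spot (grey), with secondary and tertiary granule genes as red circles and primary granule genes as blue squares. Camp and Chil3 stand above the cloud at an SD of 0.43 and 0.42, where 95% of genes in the ninth decile of level lie under 0.15.

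Beyond the lists, the 10 named genes of largest SD included Vmn1r216, Dnaaf2, Olfr223, Zfp51, Ppp3ca, Dmbt1, Olfr786, Mrpl16 and Zfp874b. Dnaaf2, an assembly factor of cilia, read 2821, 3960 and 828, Zfp51, a zinc finger gene, read 2446, 3774 and 1121, and Mrpl16, a protein of the mitochondrial ribosome, read 21252, 32998 and 10562. Those 3 were the clearly detected members of the 10, and in each array C was the lowest. The other 7 were dim, with percentiles from 53.8 to 59.96, and none of them was clearly detected.

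Metabolic genes were the class of the 5 with the largest detected share, with 132 of 173 detected, or 76.3%, and 33 saturated. Beside these stand 55.7% detected and 1.96% saturated of all named genes. Of 29 glycolysis genes 22 were detected and 9 saturated, and isozyme genes of some steps differed in their calls. Ldha, the lactate dehydrogenase of proliferating and muscle cells, was saturated at 73947, 76009 and 80525 with both probes detected. Slc2a1, the glucose transporter GLUT1, was saturated at 54789, 60214 and 61102, while Slc2a3, the transporter GLUT3, was not well above background by 3 probes. Hk2, an inducible hexokinase, read 43391, 63125 and 50051, with Hk1 and Hk3 also clearly detected. Pkm, the pyruvate kinase of most tissues, was saturated, and Pklr, its liver and red cell counterpart, read 39.9, 25.6 and 21.1. Aldoa, an aldolase, was saturated.

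The tricarboxylic acid cycle and the respiratory chain were also mostly present. Of 22 cycle genes 18 were detected and all 18 clearly, with Cs, citrate synthase, and Mdh2, malate dehydrogenase, among those saturated. The share detected was 81.8%, beside 55.7% of all named genes. Of 29 respiratory genes 23 were detected, or 79.3%, and 10 were saturated. Among the saturated were Cox4i1 and Cox5a, subunits of cytochrome oxidase, and Atp5b, a subunit of ATP synthase. The lung isoform Cox4i2 and the muscle and fat isoform Cox8b were not well above background. Cox6a2, the subunit of heart and skeletal muscle, was clearly detected and uneven, at 2867, 5137 and 7653 on arrays A, B and C, a spread of 0.51 (SD of the log2 level, n = 3). It was the list member of largest spread among those clearly detected.

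Of 28 genes for the pentose phosphate pathway, one-carbon units and nucleotides, 23 were detected, or 82.1% beside 55.7% of all named genes. Odc1, the first enzyme of polyamine synthesis, Tkt and Taldo1, of the pentose phosphate pathway, were saturated. Phgdh, the first enzyme of serine synthesis, read 29666, 42596 and 48194, and Tyms, thymidylate synthase, read 27478, 39858 and 34208. Psat1, Shmt2, Mthfd1l and Rrm2, enzymes of the same pathways, were detected in part, each bright on the arrays where its spot was usable.

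Sterol and fatty acid genes were detected in 24 of 28 cases, all of them clearly. The share was 85.7%, beside 55.7% detected and 39.4% clearly detected of all named genes. Fasn, fatty acid synthase, and Fdps, of sterol synthesis, were saturated. Scd2, a stearoyl-CoA desaturase, was saturated, whereas Scd1, the main liver isozyme, read 12.1, 15.3 and 13.7 and Scd3 was not well above background either.

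Genes of amino acid and iron transport and of heme synthesis were detected in 19 of 20 cases. Fth1 and Ftl1, the ferritin chains, were saturated, with Fth1 at 84463, 78440 and 77352. Alas1, the heme synthesis enzyme of most cells, was saturated at 59556, 61183 and 61407, and Alas2, the red cell isozyme, read 38.4, 38.4 and 64.9 and was the gene of the list not well above background. Slc7a5 and Slc1a5, amino acid transporters, and Tfrc, the transferrin receptor, were clearly detected. Of 17 liver genes 3 were detected, or 17.6% beside the same 55.7%. Fbp1, the gluconeogenic enzyme, was the clear case, at 1955, 4092 and 2477, and Alb, albumin, was not well above background.

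The label of a myeloid progenitor line was checked against markers of other cells. Proliferation genes were detected in 24 of 28 cases, or 85.7% beside 55.7% of all named genes. Mki67, the Ki-67 antigen, read 43651, 64185 and 56412, and Mcm6 and Pcna, of the replication fork, were saturated. Ccnd2, a D-type cyclin, read 46650, 60322 and 61374, while Ccnd1 was not well above background. Of 17 proliferation genes with no saturated spot, 14 were highest on array A, where 44.7% of all detected genes with no saturated spot were highest. Under quantile normalization 9 of the 17 were, so this order depended on the scaling. All 12 genes of nearly every cell were detected, and Tbp and Polr2a were the ones not clearly detected.

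Of 18 monocyte and macrophage markers 9 were detected, a share near the 55.7% of all named genes. Cd14, Lpl, Apoe and Gpnmb were the 4 clearly detected, Cd68 and Adgre1, the F4/80 gene, were dim, and C1qa, C1qc, Mmp12, Timd4 and Vsig4 were not well above background, while C1qb was detected. Of other cells, 3 of 13 red cell, 3 of 13 B cell, 3 of 8 epithelial and 1 of 13 dendritic and class II markers were detected. The same call counted 6 of 15 T cell and 4 of 11 platelet markers, and none of 7 NK cell or 6 endothelial markers. Beside these stand 55.7% detected and 39.4% clearly detected of all named genes. None of the red cell, B cell, NK cell, dendritic and class II, endothelial or epithelial markers was clearly detected. For red cells, Hba-a1, an alpha globin gene with near-identical copies, was detected dimly by 1 of 2 probes, Slc4a1, the anion exchanger, was not well above background, and for class II H2-Aa and H2-Ab1 were not either. Among 15 T cell markers Cd8b1 alone was clearly detected, at 2883, 4496 and 4262, by 1 of its 2 probes; the other, like all 3 probes of Cd8a, was not well above background. Itgb3 and Vwf, of platelets, Tubb3, of neurons, and Pdgfrb and Acta2, of smooth muscle, were the other markers clearly detected outside the myeloid and proliferation lists. Acta2 had 5 probes, whose readings ran from 13.5 to 46571, and actin genes share much of their sequence.

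**Figure D4:**
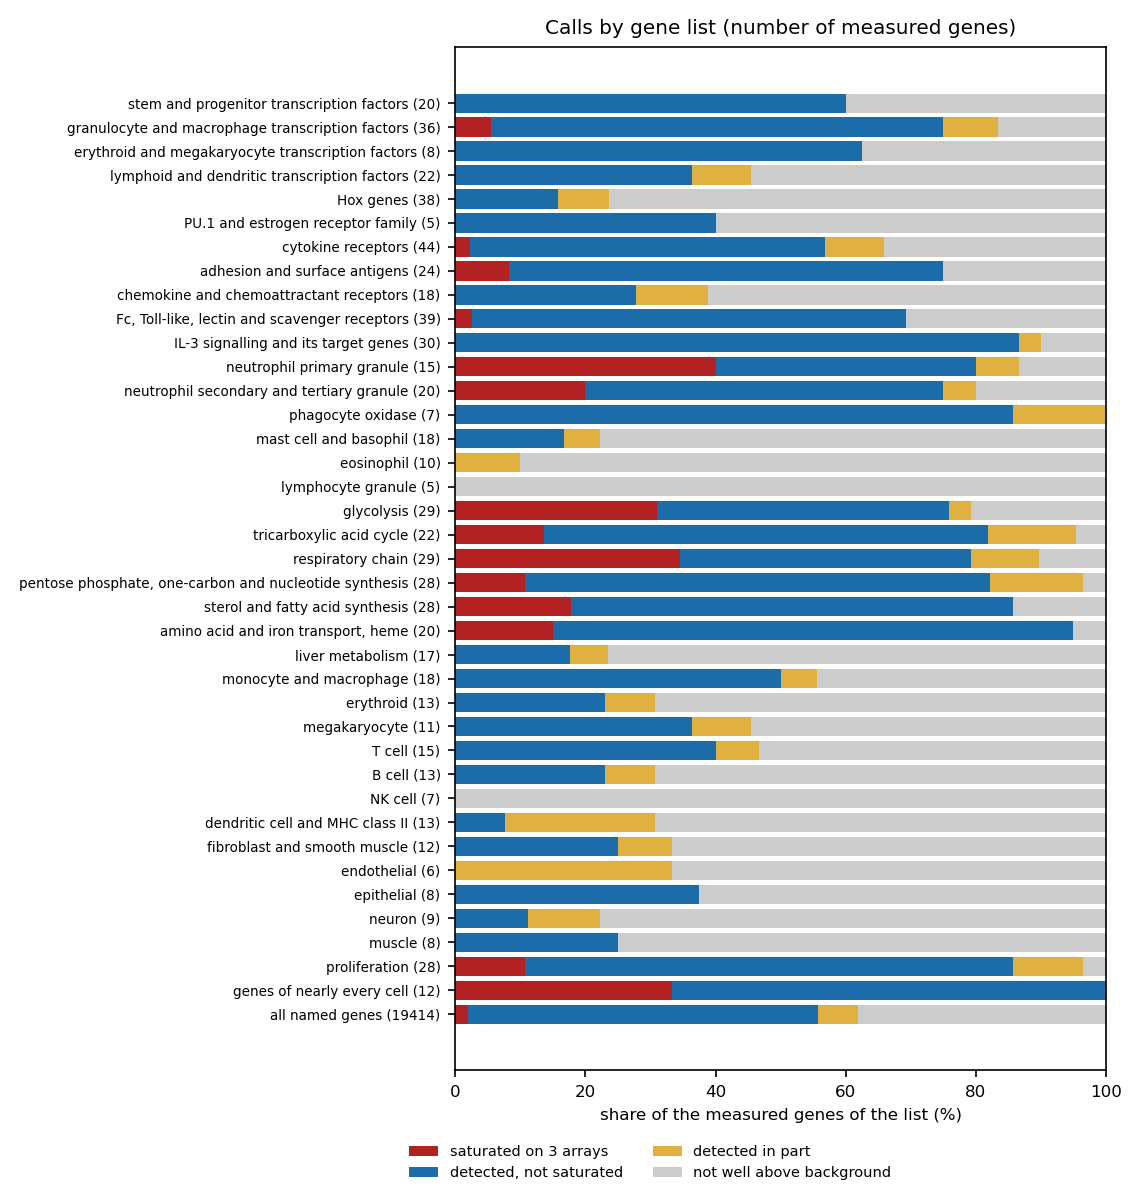
Share of the measured genes of each list (x axis, %; number of measured genes in brackets) that were saturated on 3 arrays, detected without saturation, detected in part, or not well above background. Primary granule (40%), respiratory chain (34.5%) and glycolysis (31.0%) genes include many saturated ones, and the bottom bar gives all 19414 named genes.

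The 25 named genes of highest mean percentile were of many kinds, and all had saturated spots on at least 2 arrays. H2ac20, a histone, read 85225, 83486 and 85766, and the ribosomal genes Rps18, Rpl3, Rpl23a, Rpl28 and Rps15a were among the 25. From the lists described above Fth1, Ly6c1, Ldha and S100a8 were in this group. Plin2, the coat protein of lipid droplets, Mif, a cytokine, and Hspa5, a chaperone of the endoplasmic reticulum, were others. The order within the 25 has no meaning, since the spots were saturated.

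Promoter composition was set against level within the detected genes, of which 80.6% had a promoter in the table. The same comparison with genes not well above background was void, since 77.6% of them had one and 80% was required. Median observed over expected CpG was 0.49 in the dimmest decile of detected genes and 0.80 in the brightest, and it changed little from the fourth decile upward, between 0.79 and 0.82. The letters TATAAA, on either strand, were found in 12.04% of the dimmest decile, 5.50% of the fifth and 10.8% of the brightest. Beside these stand 14.2% of all promoters and 11.98% of those of named genes on the array. GGGCGG, the GC box, was found in 45.2% of the dimmest and 65.5% of the brightest decile. The promoter of Ldha at chr7:46845554-46845853, on the plus strand, is shown as that of a glycolytic gene at saturation, with the 2 matches to CACGTG, the E-box of Myc and its relatives, in capitals. These letters occur in 3 of the 22 detected glycolytic genes. Beside these stand 7.24% of all promoters, 8.56% of those of named genes on the array and 10.3% of those of detected, unsaturated genes.
Ldha promoter: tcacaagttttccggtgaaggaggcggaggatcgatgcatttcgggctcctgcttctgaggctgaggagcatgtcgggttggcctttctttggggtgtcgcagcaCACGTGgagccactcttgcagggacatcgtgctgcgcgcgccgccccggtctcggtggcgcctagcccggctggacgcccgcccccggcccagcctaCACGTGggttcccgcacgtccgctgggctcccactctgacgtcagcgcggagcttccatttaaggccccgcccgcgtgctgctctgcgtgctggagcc
Its CpG ratio was 0.88, against 0.09 for Mpo.

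**Figure D5:**
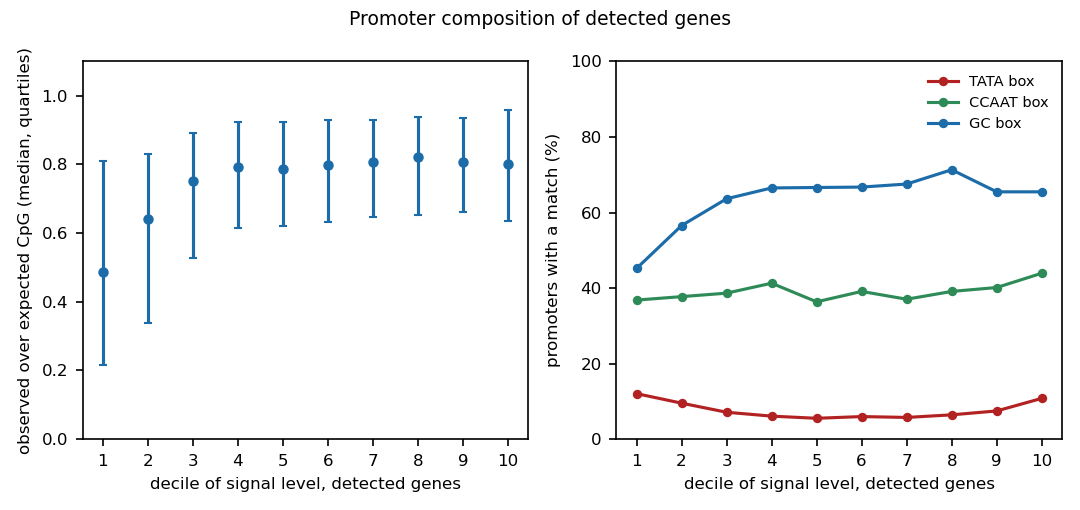
Promoter composition of 8720 detected genes by decile of signal level: median observed over expected CpG with quartiles (left) and the share of promoters with a TATA box, CCAAT box or GC box match on either strand (right, %). The CpG median climbs over the 3 dimmest deciles and then stays between 0.79 and 0.82, and the TATA share is lowest in the middle deciles.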

How the data were processed

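Of 12 Agilent one-colour arrays (design 014868), the 3 of the control vector before 4-OHT were used. Feature Extraction 9.5.3.1 made the files, per the file headers (9.5 in the submitters' processing notes). Each spot's deposited intensity is linear, taken after the software's background and spatial correction, with no scaling between arrays; other columns are the software's flags. The deposited value table holds the same intensity, within 0.495% on every array. Spots flagged as outliers were left out, and repeated spots of a probe were averaged. Probes were named through RefSeq transcripts or symbols (32734 of 41174), and a gene took its probe of highest mean; of 8574 genes with 2 or more probes, 2049 had probes both detected and never detected. Levels are log2 of the deposited intensity over the array's 75th percentile. Of 702 listed genes, 685 had a value, 11 had no probe by name and 6 had outlier spots alone.

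No test across conditions was made. Members and lists were chosen with earlier results of these data known. Named genes were list members, the 25 of highest mean percentile and the 10 of largest SD; some are not reported here. The number of arrays, 3, limits the precision. Alternatives were other detection calls, outlier handling, probe choice, background correction (normexp, limma 3.58.1, R 4.3.3), scaling, and leaving out each replicate; the bound from olfactory genes was chosen after seeing the data. The functions were tested on simulated data. Analysis used Python 3.11.15, numpy 2.4.6 and pandas 2.3.3.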

Additional observations from a re-analysis of the deposited data

How the results depend on the processing

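Counts of detected genes, in all and in the 4 classes, stayed within 1.5 times under every alternative call, outlier rule, probe rule and left-out replicate. The median CpG ratio of detected genes did so with the probe of highest mean and without each replicate, the alternatives run for it. Other values moved more: 629 genes were saturated on at least 1 array, against 381 on all 3, and leaving out a replicate gave 381 to 538, the highest without array A. Of the 25 genes of highest percentile, 5 remained under normexp, 13 with the median over probes, and 20 to 24 without a replicate. Of 432 percentiles of named genes under alternatives, 58 moved by at least the SD of that gene's percentile between arrays. The largest shift, of 24.96 points, was that of Csf2rb with the median over probes. The median SD was 0.133 with no filter on detection or saturation and 0.055 to 0.071 without a replicate. The count of genes with SD over 0.5 was 19 under normexp, 2145 with no filter, and 92 to 122 without a replicate, where an SD over 2 arrays is less stable. Of 348 list counts under alternatives, 48 moved by over 1.5 times, each in a list with at most 9 detected members. The software's looser flag (positive and significant) counted 14 Hox genes and 11 chemokine and chemoattractant receptor genes as detected. It also counted 9 mast cell and basophil genes and 3 eosinophil genes. For genes detected but not clearly (under the level that 95% of detected olfactory genes stay below), signal over background limits any statement of presence. Where no reason is given, the cause was not tested. No paired analysis was possible because 1 group was used.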
